A study of Mus musculus with 11 samples.

Results

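Cd80, Cd86 and Cd40 are the 3 costimulatory surface molecules of macrophages that were selected by name from the 754 genes of a Nanostring myeloid panel. All 3 were measured above the lower limit of the table in every mouse, and all 3 were among the 445 genes that passed the filter of a mean above 30 normalized counts. The study asked how macrophages that lack the secreted protein RELMα, encoded by Retnla, respond to interleukin-4. F4/80+CD11b+ peritoneal macrophages had been sorted from 11 female C57BI/6 mice, as the strain is spelled in the labels, aged 6 to 8 weeks. Each mouse received intraperitoneal PBS or IL-4c, a complex that prolongs the action of interleukin-4, on day 0 and day 2, and cells were taken on day 4. There were 2 PBS-treated Rα+/+ (wild-type) mice, 2 PBS-treated RαTd/Td mice, 3 IL-4c-treated Rα+/+ mice and 4 IL-4c-treated RαTd/Td mice. In the RαTd allele a TdTomato reporter takes the place of part of Retnla. The deletion was made constitutive with a cre deleter line, so it is not restricted to macrophages, and both genotypes came from heterozygote crosses and were then bred in-house. Numbers 1 to 12 name the mice as in the labels. A further IL-4c-treated Rα+/+ mouse, which the study left out, is not analysed here. In the study its expression grouped with the PBS-treated mice, and it had less RELMα and fewer peritoneal cells. The study gives ineffective delivery of IL-4c as the likely reason. The choice of the Rα+/+ mice thus rested in part on their expression.

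CD80 and CD86 are the B7 ligands on antigen-presenting cells. They engage CD28 on T cells, which gives the second signal that full activation of a naive T cell needs, and they engage the inhibitory receptor CTLA-4, which binds them more tightly. CD40 is a receptor of the TNF receptor family on macrophages, dendritic cells and B cells that is triggered by CD40 ligand on T cells and signals through TRAF adaptors and NF-kB. Resident peritoneal macrophages take up dying cells and proliferate in place in response to interleukin-4, and they are weaker stimulators of naive T cells than dendritic cells.

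Retnla itself was read first, as the targeted gene. Its level was 4631 and 4141 normalized counts in the PBS-treated Rα+/+ mice and 115675, 147349 and 171588 in the IL-4c-treated ones. All 6 RαTd/Td mice stood at the lower limit of 30, so no library went against its genotype label. Depth, as the sum of counts over genes above the limit, ran from 268858 to 574505 per mouse, and 355 to 391 genes lay above the limit. Depth was 297254, 551546, 268858 and 280396 in the PBS-treated mice 1, 2, 3 and 4. In the IL-4c-treated mice it was 447267 to 574505. The part of depth in the results was not tested. The assay's positive-control probes were read lower in the IL-4c-treated samples, at a geometric mean of 301 to 623 counts against 853 to 1021 in the PBS-treated ones, and the part of this in the results was not tested. All 5 macrophage markers were above the limit in every mouse and summed to 22298 to 28965 normalized counts. The sum hides changes in opposite directions. Csf1r was 2656 to 4018 after PBS and 1532 to 2357 after IL-4c, and Mertk was 429 to 749 and 198 to 442. Adgre1 was 5897 to 7358 after PBS and 7904 to 10617 after IL-4c, and Cd68 was 2394 to 3480 and 3253 to 5543. Itgam was 7780 to 11245 and 8170 to 11130.

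Cd80 and Cd86 lie on chromosome 16, at chr16:38457430-38495958 and chr16:36568956-36666158, and Cd40 lies at chr2:165055614-165071654 (GRCm38.p6, RefSeq). The sequence shown is the Cd80 promoter, since Cd80 was the only member with a window among the RefSeq promoters available here. The promoters of Cd86 and Cd40 were not available. The Cd80 sequence was searched for motifs of factors that act downstream of CD40, interleukin-4 and interferons, and for the motif of PU.1. It holds the 250 bases before the transcription start that RefSeq uses for Cd80, chr16:38458683-38458932 on the plus strand, which lies inside the annotated span of the gene. The capitals mark matches to GGGNNNNNCC, a loose form of the NF-kB motif, on either strand.
Cd80: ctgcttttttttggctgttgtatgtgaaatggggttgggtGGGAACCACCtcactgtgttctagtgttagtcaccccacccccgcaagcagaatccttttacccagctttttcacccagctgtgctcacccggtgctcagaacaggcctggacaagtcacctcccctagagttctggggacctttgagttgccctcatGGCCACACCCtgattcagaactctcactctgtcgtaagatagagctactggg
One match lies 210 to 201 bases before the start on the strand of the gene, and the other lies 52 to 43 bases before it on the opposite strand. This motif is frequent, since 45.8% of the 32851 RefSeq promoter windows of the same length hold it. TTCNNNNGAA (STAT6, 5.85% of windows), TTCNNNGAA (the interferon-gamma activated site, 7.02%), GAAANNGAAA (the interferon-stimulated response element, 2.98%) and GAGGAAG (PU.1, 10.6%) were searched on both strands and have no match in these letters.

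The first comparison asked what IL-4c did to the costimulatory transcripts in wild-type macrophages. All 3 fell in Rα+/+ mice. Cd86 fell the most, 2.41-fold, Cd40 fell 1.90-fold and Cd80 fell 1.56-fold. Among the 445 genes tested, 46.3% were called in this comparison, which means an adjusted p at or under 0.05 in limma, and 32.4% were called lower, so falls were common on this panel. The PBS-treated and IL-4c-treated mice did not overlap for any of the 3, and with groups of 2 and 3 mice 63.6% of the tested genes did not overlap either. The median gene also lay below 0, at a log2 fold change of -0.18.

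Cd86 was measured at 270.1 and 158 normalized counts in the PBS-treated Rα+/+ mice (214 ± 79.1, SD, n = 2). After IL-4c it was 71.0, 80.1 and 109 (86.7 ± 19.9, SD, n = 3). The lower PBS-treated mouse still lay above the highest IL-4c-treated mouse, although the PBS-treated pair itself was far apart. The log2 fold change was -1.27 (SE 0.27, 95% interval -1.86 to -0.67, limma adjusted p = 0.0038). Without mouse 1, the higher of the PBS-treated pair, it was -0.88 and was no longer called.

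Cd40 was 138 and 122 normalized counts after PBS (130.3 ± 11.3, SD, n = 2). It was 66.4, 67.9 and 69.6 after IL-4c (68.0 ± 1.60, SD, n = 3). Both groups were tight and far from overlapping. The log2 fold change was -0.93 (SE 0.20, 95% interval -1.37 to -0.48, limma adjusted p = 0.0041). This fall stayed called with each mouse left out in turn, from -1.01 to -0.84, and in the 10 other ways of processing that were tried for it.

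Cd80 was 220.3 and 143 normalized counts after PBS (182 ± 54.5, SD, n = 2). After IL-4c it was 125, 116 and 99.8 (114 ± 12.7, SD, n = 3). The lower PBS-treated mouse was close to the highest IL-4c-treated one. The log2 fold change was -0.65 (SE 0.21, 95% interval -1.12 to -0.17, limma adjusted p = 0.029). The call was lost without mouse 1 (-0.34), mouse 6 (-0.67) or mouse 7 (-0.56), and it was also lost when each mouse was centred on its median gene (-0.35, adjusted p = 0.18) or after quantile normalization (-0.40, adjusted p = 0.10).

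**Figure D1:**
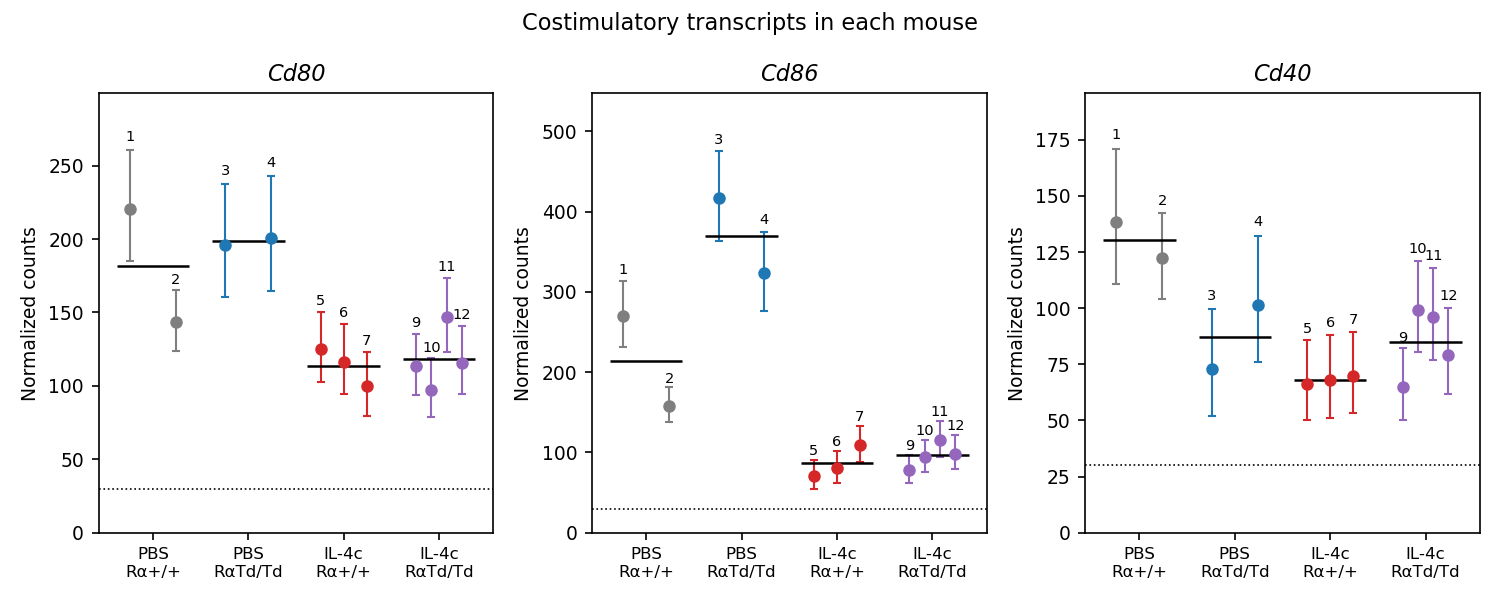
Normalized counts (linear axis from 0) of Cd80, Cd86 and Cd40 in each mouse, by treatment and genotype. Points are mice with their numbers, bars are exact 95% Poisson intervals for counting error, black lines are group means and the dotted line is the lower limit of 30. Cd86 is highest in the PBS-treated RαTd/Td mice, at 417 and 323, and Cd40 is highest in the PBS-treated Rα+/+ mice, at 138 and 122.

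The second comparison put the same question to macrophages without RELMα. In RαTd/Td mice Cd86 and Cd80 fell again after IL-4c, 3.81-fold and 1.69-fold, while Cd40 was not called and its estimate was near 0. That is 2 of 3 members, beside 51.9% of all tested genes called and 36.6% called lower, and the same 2 of 3 had groups that did not overlap, beside 62.5% of tested genes. The median gene had a log2 fold change of -0.23 here.

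Cd86 was 417 and 323 normalized counts in the PBS-treated RαTd/Td mice (370 ± 66.3, SD, n = 2). After IL-4c it was 78.1, 94.0, 115 and 98.7 (96.5 ± 15.3, SD, n = 4). No IL-4c-treated mouse came near the PBS-treated pair. The log2 fold change was -1.93 (SE 0.25, 95% interval -2.50 to -1.36, limma adjusted p = 0.00024), and only 4.04% of the tested genes had a lower one. It was called under all 22 alternatives tried.

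Cd80 was 196 and 201 normalized counts after PBS (199 ± 3.34, SD, n = 2). It was 113, 97.1, 147 and 116 after IL-4c (118 ± 20.6, SD, n = 4). All 4 treated mice lay below the PBS-treated pair, which was almost identical. The log2 fold change was -0.76 (SE 0.20, 95% interval -1.21 to -0.31, limma adjusted p = 0.010). Centring on the median gene gave -0.50 (adjusted p = 0.060), quantile normalization gave -0.46 (adjusted p = 0.058), and the call was also lost without mouse 3 (-0.78) or mouse 4 (-0.74).

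Cd40 was 72.9 and 101 normalized counts after PBS in RαTd/Td mice (87.1 ± 20.2, SD, n = 2). After IL-4c it was 64.7, 99.2, 95.9 and 79.2 (84.8 ± 16.0, SD, n = 4). These groups overlapped over nearly their whole range. The log2 fold change was -0.04 (SE 0.19, 95% interval -0.46 to 0.38, limma adjusted p = 0.89), and it was positive after median centring (0.22) and quantile normalization (0.33), neither of them called. This interval leaves room for a moderate change either way.

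Averaged over the genotypes, IL-4c lowered all 3 transcripts, where 62.7% of tested genes were called and 43.8% were called lower. Cd86 had an averaged log2 fold change of -1.60 (95% interval -2.01 to -1.19, limma adjusted p = 5.0e-05). For Cd80 it was -0.70 (-1.03 to -0.38, adjusted p = 0.0021). Both were called under all 19 alternatives. For Cd40 it was -0.48 (-0.79 to -0.18, adjusted p = 0.012), which combines a fall in one genotype with an estimate near 0 in the other. The averaged Cd40 call was lost after median centring (-0.20) and quantile normalization (-0.12), and without mouse 1 (-0.44) or mouse 4 (-0.37).

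**Figure D2:**
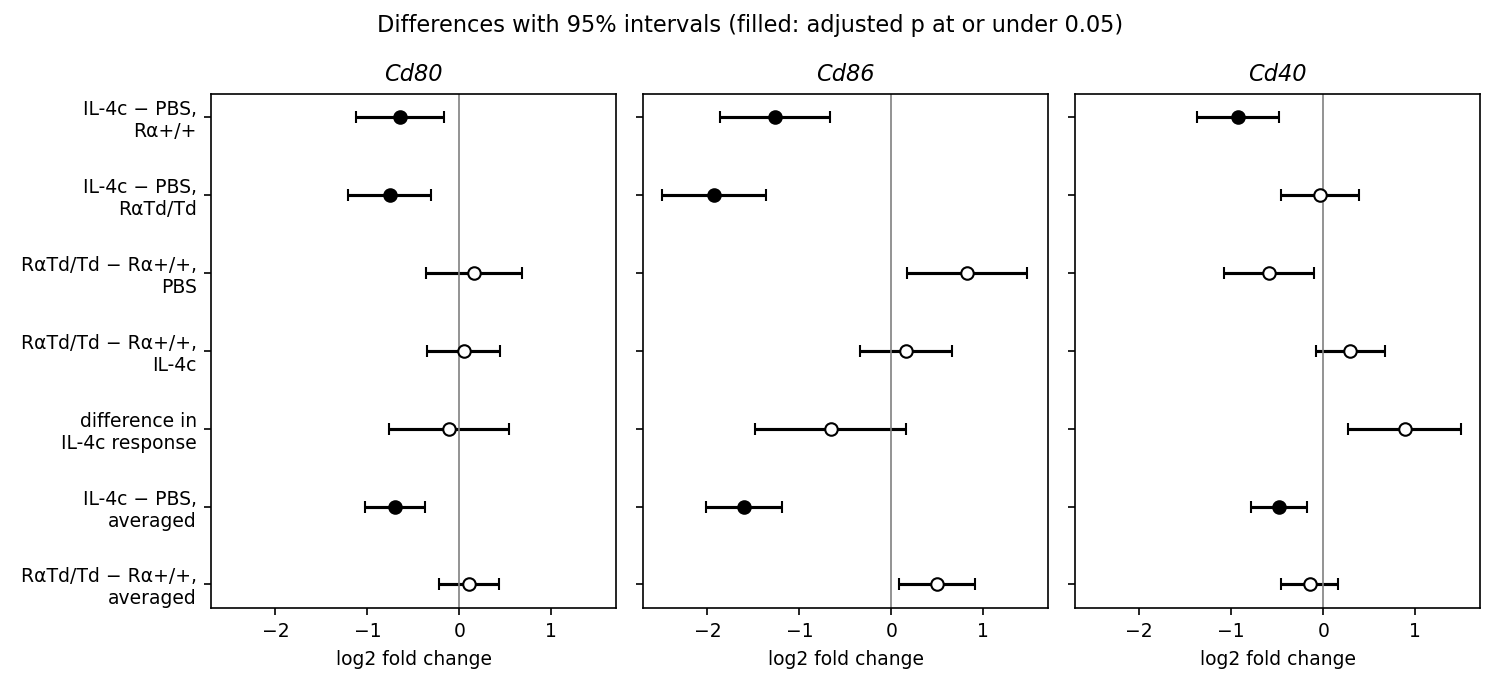
Log2 fold changes of Cd80, Cd86 and Cd40 in the 7 comparisons, with 95% intervals from limma; filled points had an adjusted p at or under 0.05. The filled points are all IL-4c comparisons, from -1.93 for Cd86 in RαTd/Td mice to -0.48 for Cd40 averaged over the genotypes.

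The third question was whether loss of RELMα changed the costimulatory transcripts. After PBS, limma called 0 of the 3 at the adjusted threshold, beside 9.66% of all tested genes. Unadjusted, 2 of the 3, Cd86 and Cd40, had a p under 0.05 in limma, and the unmoderated test of the study's methods gave 0. The share of all tested genes with an unadjusted p under 0.05 was not counted for this or the later comparisons. Whether such counts of members are unusual on this panel is therefore not known. Cd86 and Cd40 moved in opposite directions. Cd86 was higher in the RαTd/Td pair, at 417 and 323 normalized counts against 270.1 and 158, a log2 difference of 0.82 (SE 0.29, 95% interval 0.17 to 1.48, limma adjusted p = 0.12, unadjusted p = 0.019). Cd40 was lower in the RαTd/Td pair, at 72.9 and 101 against 138 and 122, a log2 difference of -0.59 (SE 0.22, 95% interval -1.08 to -0.10, adjusted p = 0.13, unadjusted p = 0.023). Neither pair overlapped, and with 2 mice in each group 49% of the tested genes did not overlap either. For Cd86 the difference was called when mouse 1 was left out (1.21, adjusted p = 0.039), and it was 0.44 without mouse 2. For Cd40 the limma log2 difference ran from -0.83 without mouse 4 to -0.36 without mouse 3, the mouse with the fewest Cd40 counts. Those were 39 counts, for which the exact 95% Poisson interval is 51.8 to 99.6 normalized counts. Cd80 did not separate the genotypes after PBS, since both RαTd/Td mice lay between the 2 Rα+/+ mice (log2 difference 0.16, 95% interval -0.36 to 0.68, adjusted p = 0.76).

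After IL-4c the genotypes overlapped for all 3 transcripts, and limma called 0 of 3, with 0 of 3 at an unadjusted p under 0.05 and 0 by the unmoderated test of the study's methods. In this comparison 2.7% of all tested genes were called and 18.9% did not overlap. The log2 differences between RαTd/Td and Rα+/+ were 0.05 for Cd80 (95% interval -0.35 to 0.44, adjusted p = 0.91), 0.16 for Cd86 (-0.34 to 0.66, adjusted p = 0.69, and 0.03 to 0.34 with a mouse left out) and 0.29 for Cd40 (-0.08 to 0.67, adjusted p = 0.32). The upper ends of these intervals are 1.36-fold, 1.58-fold and 1.59-fold. The 3 Rα+/+ mice lay within the lower part of the Cd40 range of the RαTd/Td mice, above mouse 9 at 64.7 and below mouse 12 at 79.2. Averaged over the treatments, 0 of 3 were called beside 13% of tested genes, and 1 of 3, Cd86, had an unadjusted p under 0.05 (log2 difference 0.49, 95% interval 0.08 to 0.91, adjusted p = 0.11; 0.69 and called without mouse 1).

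The fourth question was whether the IL-4c response itself differed between the genotypes. The interaction was called for 0 of 3 members in limma and for 2.02% of all tested genes, and 1 of 3 members had an unadjusted p under 0.05. That was Cd40, whose response was 0.89 log2 units higher in RαTd/Td than in Rα+/+ mice (SE 0.27, 95% interval 0.27 to 1.5, unadjusted p = 0.0096, adjusted p = 0.14). Over the alternatives this estimate stayed between 0.65 and 1.12 and was never called, with an adjusted p down to 0.067 in the fits that leave out a mouse. The called fall of Cd40 in Rα+/+ mice is thus not shown to be absent, or different, in RαTd/Td mice. For Cd86 the difference in response was -0.66 (95% interval -1.48 to 0.16, adjusted p = 0.42; -1.04 without mouse 1 and -0.28 without mouse 2) and for Cd80 it was -0.11 (-0.77 to 0.54, adjusted p = 0.85).

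Ordered by group mean, Cd86 ran from PBS-treated RαTd/Td, through PBS-treated Rα+/+ and IL-4c-treated RαTd/Td, to IL-4c-treated Rα+/+ mice. The first pair of neighbours did not overlap but was not called, the next did not overlap, with 158 and 115 normalized counts in the nearest mice, and was not tested because it differs in both treatment and genotype, and the last pair overlapped. The order for Cd80 was the same, with overlap at each step, since the lowest PBS-treated mouse (143) lay below the highest IL-4c-treated RαTd/Td mouse (147). For Cd40 the order began with PBS-treated Rα+/+ mice, which did not overlap the PBS-treated RαTd/Td mice next to them, a difference that was not called. The PBS-treated and IL-4c-treated RαTd/Td mice came next and overlapped, with means of 87.1 and 84.8, and the IL-4c-treated Rα+/+ mice, with a mean of 68.0, lay inside the range of the IL-4c-treated RαTd/Td mice.

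How far the values can be trusted depends on how many molecules were counted. Behind the normalized values stood 86 to 191 counts for Cd80, 62 to 223 for Cd86 and 39 to 163 for Cd40. Within groups the SD on the log2 scale was 0.25 for Cd80, 0.32 for Cd86 and 0.23 for Cd40 (7 degrees of freedom), where counting error alone would give 0.14, 0.14 and 0.18. Mice of a group therefore differed by 2.25 times the counting error for Cd86 and 1.79 times for Cd80, and by 1.29 times for Cd40. Intervals of single mice cover counting error only.

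**Figure D3:**
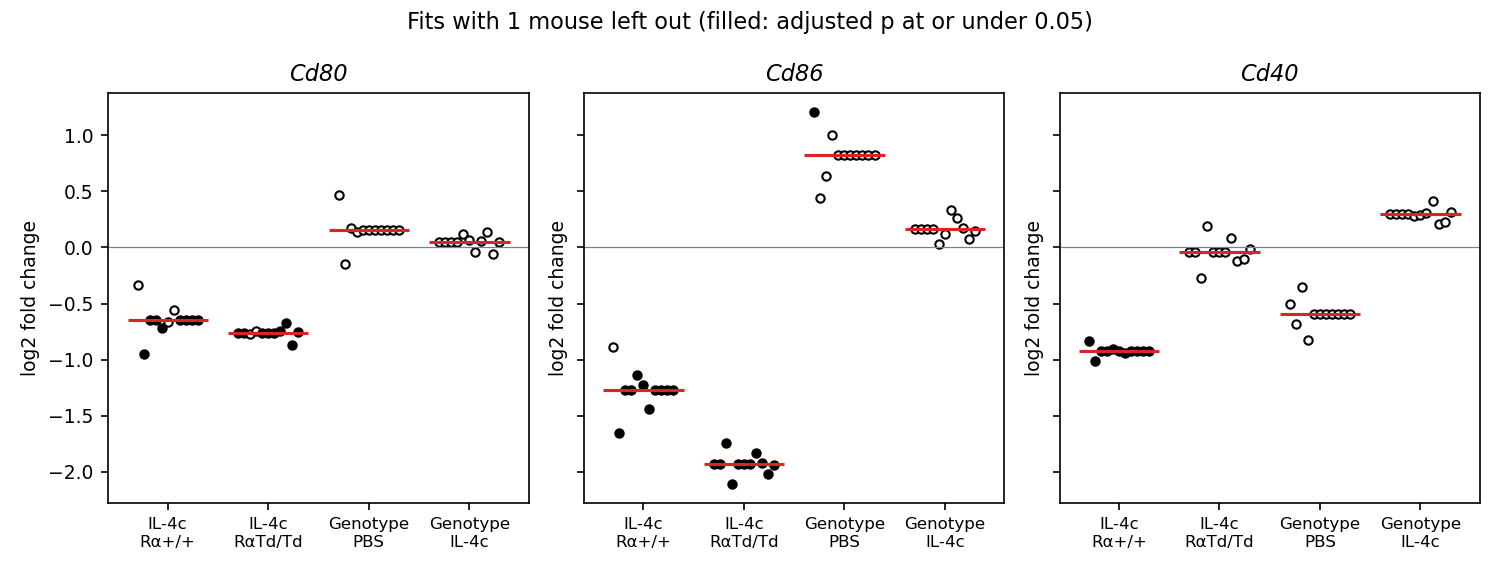
Log2 fold change of Cd80, Cd86 and Cd40 when each of the 11 mice was left out, for IL-4c against PBS in each genotype and for RαTd/Td against Rα+/+ after each treatment. Each point is 1 fit, filled where the adjusted p was at or under 0.05, and the red line is the value with all mice. Every fit for Cd86 in RαTd/Td mice and for Cd40 in Rα+/+ mice is filled, whereas 3 of the 11 fits for Cd80 in Rα+/+ mice are open.

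Ratios between transcripts of the same mouse hardly depend on the scaling of that mouse, so they compare the members with each other. A ratio of 2 probes is not a ratio of molecules, and only its difference between groups was read. The Cd86 to Cd80 log2 ratio was 0.29 and 0.14 in PBS-treated Rα+/+ mice and 1.08 and 0.68 in PBS-treated RαTd/Td mice. After IL-4c it was -0.81, -0.54 and 0.13 in Rα+/+ mice and -0.53, -0.05, -0.34 and -0.23 in RαTd/Td mice. Within each genotype every IL-4c-treated mouse lay below every PBS-treated mouse. The mean difference was -0.90 (exact permutation test, two-sided, p = 0.0067, the lowest value this design of 150 arrangements can give, adjusted p = 0.040 over 6 tests), so Cd86 fell more than Cd80.

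The Cd86 to Cd40 log2 ratio was 0.96 and 0.37 in PBS-treated Rα+/+ mice and 2.50 and 1.66 in PBS-treated RαTd/Td mice. After IL-4c it was 0.09, 0.23 and 0.64 in Rα+/+ mice and 0.27, -0.08, 0.26 and 0.31 in RαTd/Td mice. Mouse 7 overlapped the PBS-treated mice of its genotype, whereas the RαTd/Td groups were far apart. The mean difference between IL-4c and PBS was -1.12 (exact permutation p = 0.013, adjusted p = 0.040). For Cd80 to Cd40 it was -0.22 (exact permutation p = 0.39, adjusted p = 0.42). Between the genotypes, the mean differences of the 3 ratios were 0.39, 0.64 and 0.25, with exact permutation adjusted p-values of 0.23, 0.36 and 0.42. Both calls rest on few arrangements. When a mouse was left out, the Cd86 to Cd80 difference stayed between -1.03 and -0.80 and the Cd86 to Cd40 difference between -1.32 and -0.91, but in 9 of 11 such sets the adjusted p was above 0.05.

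**Figure D4:**
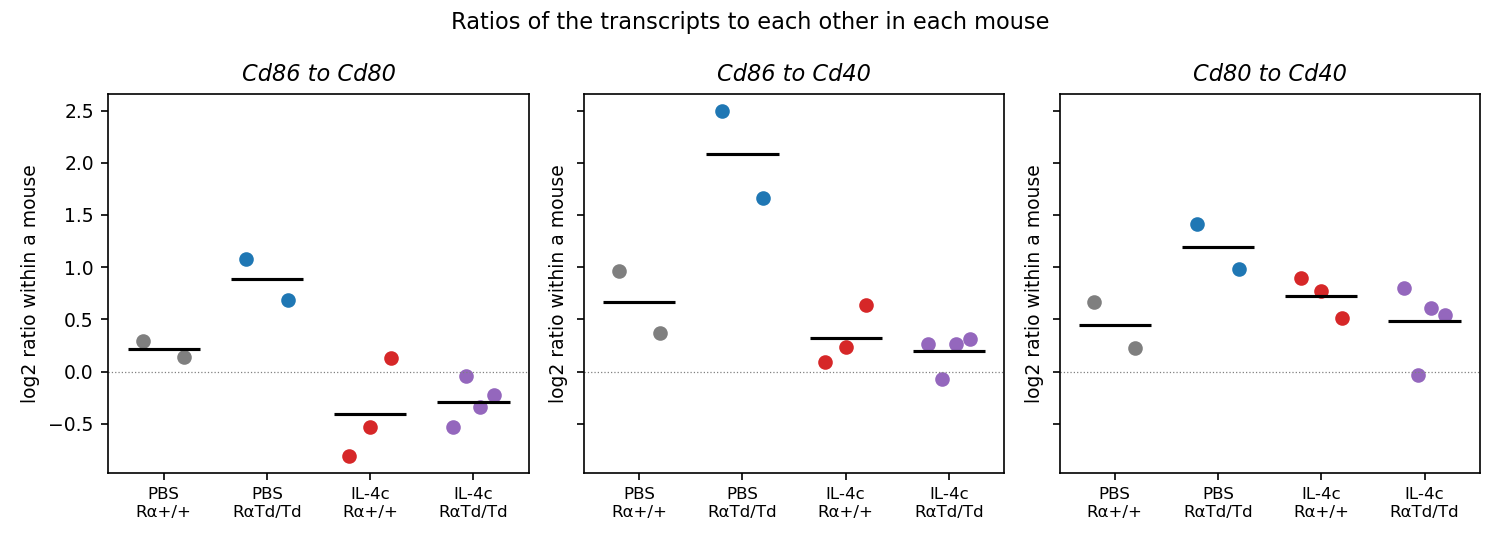
Log2 ratios of Cd86 to Cd80, Cd86 to Cd40 and Cd80 to Cd40 within each mouse, by treatment and genotype; points are mice and black lines are group means. For Cd86 to Cd80 both PBS-treated RαTd/Td mice, at 1.08 and 0.68, lie above all 7 IL-4c-treated mice, which reach 0.13 at most.

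Across the 11 mice, the genes with the pattern most like each member were found among the 302 other genes above the limit in every mouse, by the root mean square difference of log2 values centred on each gene's mean. For Cd80 they were Dhrs3 (0.17), Cebpb (0.17) and Vamp2 (0.17). For Cd86 they were Man2b1 (0.22), Timd4 (0.23) and Atf3 (0.26). For Cd40 they were C1qb (0.22), Vsir (0.25) and Cysltr1 (0.25). These are the nearest genes by selection, so any other gene is less alike. Between members the difference was 0.36 for Cd80 and Cd40, 0.53 for Cd80 and Cd86 and 0.74 for Cd86 and Cd40. Among the 302 genes, Cd40 ranked 121 and Cd86 216 in likeness to Cd80. For Cd86 the ranks were 60 for Cd80 and 156 for Cd40, and for Cd40 they were 69 for Cd80 and 267 for Cd86.

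Other cells of the peritoneal cavity also make these molecules. B cells express Cd80, Cd86 and Cd40, and 2 of 9 listed B cell markers were on the panel. Ms4a1, which encodes CD20, was 105 and 226 normalized counts in the PBS-treated Rα+/+ mice and 192 and 242 in the PBS-treated RαTd/Td mice, and was at the limit in every IL-4c-treated mouse but mouse 12, at 63.1. Cxcr5 was above the limit in 3 of the 4 PBS-treated mice, between 51.5 and 79.5, and in none of the IL-4c-treated ones. The B cell markers, with values at the limit taken as 0, summed to 156 to 306 after PBS. After IL-4c they summed to 0 except in mouse 12 (63.1). They were thus lower in both genotypes, as were Cd80 and Cd86, whereas the Cd40 estimate in RαTd/Td mice was -0.04. Mouse 2 had more Ms4a1 than mouse 1. Its Cd80 (143 against 220.3), Cd86 (158 against 270.1) and Cd40 (122 against 138) were lower. Mouse 4 had more Ms4a1 than mouse 3, with less Cd86 but more Cd80 and Cd40. These values are from cells sorted on F4/80 and CD11b, and the part of B cell transcripts in the falls was not tested.

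Neutrophil markers were mostly at the limit, with Ly6g, Cxcr2, Mpo and Elane there in every mouse, of 6 listed and on the panel. S100a8 was 70.8, 82.5 and 74.8 normalized counts in 3 of the 4 PBS-treated mice, at the limit in 5 of the 7 IL-4c-treated mice, and 35.6 and 47.1 in the other two. S100a9 was above the limit in 1 mouse, at 31.4. The neutrophil list summed to at most 82.5 after PBS and 47.1 after IL-4c. Mouse 4, a PBS-treated mouse, had none above the limit, so the treatments overlapped. The part of neutrophil transcripts in the falls was not tested.

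Dendritic cell markers gave little signal. Of 8 listed, 6 were on the panel and 5 of these, Flt3, Itgax, Xcr1, Clec9a and Ccr7, were at the limit in every mouse. The remaining marker, Batf3, was 45.7 to 75.4 normalized counts after IL-4c. After PBS it was 34.5 in mouse 2 and at the limit in mice 1, 3 and 4. Their smallest measured values were 48.2, 56.1 and 56.3, so these mice may overlap the IL-4c-treated ones. Markers of small peritoneal macrophages or monocytes summed to 789 to 1082 after PBS and 440 to 1397 after IL-4c. Mouse 12 was the highest, with Ccr2 at 464, and its Cd80, Cd86 and Cd40 values lay within the range of the other IL-4c-treated RαTd/Td mice. The 3 large peritoneal macrophage markers on the panel summed to 13303 to 17119 after PBS and 4988 to 9422 after IL-4c. Alox15 and Timd4 carry this sum, and Gata6, the transcription factor that defines these cells, was 503 to 712 after PBS and 536 to 654 after IL-4c. Their part in the results was not tested, and fewer cells of a type and less RNA per cell cannot be told apart in bulk samples. No T cell marker of the list was on the table.

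The B7 and CD28 family list held 12 genes, all on the panel, of which 6 were tested and 6 (Cd276, Vtcn1, Cd28, Ctla4, Icos and Pdcd1) were at the limit in every mouse. The T cell receptors for CD80 and CD86 were thus not detectable here. Over all 445 tested genes, IL-4c lowered 144 and raised 62 in Rα+/+ mice (median log2 fold change -0.18), and lowered 163 and raised 68 in RαTd/Td mice (median -0.23). Of the 6 genes of this list, 4 fell and 0 rose in Rα+/+ mice (median -0.57), and 3 fell and 1 rose in RαTd/Td mice (median -0.46). Without Cd80 and Cd86 it was 2 lower of 4 in Rα+/+ mice, and 1 lower and 1 higher in RαTd/Td mice. After median centring 1 was lower and 1 higher in each genotype. For this list and the later ones, counts under another scaling or limit stand without the share of all tested genes. Whether a change in such a count is particular to a list is therefore not known.

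Vsir, which encodes the inhibitory ligand VISTA, fell in both genotypes. It was 2621 and 2349 normalized counts in PBS-treated and 1734 to 1771 in IL-4c-treated Rα+/+ mice (log2 fold change -0.50, limma adjusted p = 0.0091), and 2510 and 2883 against 1750 to 2172 in RαTd/Td mice (-0.47, adjusted p = 0.0089). Neither fall was called after median centring (-0.20 and -0.21), and leaving out mouse 1 or mouse 4 ended the call in the genotype of that mouse. Cd274, which encodes the inhibitory ligand PD-L1, went the other way from Cd80 and Cd86. It rose in RαTd/Td mice, from 30 (the limit) in mouse 3 and 58.2 to 123, 106, 92.7 and 120.5 normalized counts. The log2 fold change was 1.37 (limma adjusted p = 0.0037), and it was 0.91 and not called without mouse 3. The smallest measured value of mouse 3 was 56.1, so the size of this rise depends on the value given to mouse 3. In Rα+/+ mice Cd274 was 59.5 and 42.0 after PBS and 52.7, 93.4 and 82.4 after IL-4c. The log2 fold change there was 0.56 (limma adjusted p = 0.17), and it was 0.86 and called after median centring. Its difference in response between genotypes was 0.82 (adjusted p = 0.39). Icosl, the ligand of ICOS, was called lower in Rα+/+ mice, where it went from 86.8 and 61.5 to the limit in 2 of 3 mice and 37.1 in the other, and with a single lower limit for all mice it was not called (-0.37, adjusted p = 0.076), nor without mouse 1, 2, 5 or 6.

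The list of costimulatory members of the TNF receptor family held 14 genes, Cd40 included. Of these 10 were on the panel and 8, Cd40lg among them, were at the limit in every mouse. Tnfrsf14, the receptor HVEM, was the only one tested beside Cd40. It was 179.95 to 261 normalized counts over all mice and was not called in either IL-4c comparison (0.06 in Rα+/+ and -0.19 in RαTd/Td mice). Its estimate in Rα+/+ mice depended on the scaling, at 0.36 after median centring (not called) and 0.40 after quantile normalization (called, adjusted p = 0.037).

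Downstream of CD40, 7 of 9 NF-kB pathway genes on the panel were tested, of 18 listed. After IL-4c 2 fell in Rα+/+ mice and 4 fell in RαTd/Td mice, with 0 rising and medians of -0.60 and -0.47. The count of 2 of 7 is near the 32.4% called lower over all tested genes, and the count of 4 of 7, beside 36.6%, was 1 of 7 after median centring and after quantile normalization. Birc3, which encodes the TRAF-binding ubiquitin ligase cIAP2, was 328 and 316 against 180 to 190.3 normalized counts in Rα+/+ mice (log2 fold change -0.79, limma adjusted p = 0.0035) and 503 and 535 against 214 to 336 in RαTd/Td mice (-0.94, adjusted p = 0.00088). Birc3 was higher in the PBS-treated RαTd/Td pair than in the Rα+/+ pair (0.69, limma adjusted p = 0.044), where Cd40 was lower but not called. The Birc3 call was lost in 9 of the 11 fits without a mouse. It was also lost after median centring (0.54, limma adjusted p = 0.14) and quantile normalization (0.38, adjusted p = 0.23). Nfkbia, the inhibitor of NF-kB that is itself induced by it, fell by 1.06 on the log2 scale in Rα+/+ mice (adjusted p = 0.00056) and by 0.48 in RαTd/Td mice (adjusted p = 0.025). The falls of Birc3 and the fall of Nfkbia in Rα+/+ mice stayed called under both other scalings, and the fall of Nfkbia in RαTd/Td mice under neither, nor without mouse 3 or mouse 4. Birc2 (-0.62, adjusted p = 0.013) and Nfkb1 (-0.41, adjusted p = 0.022) were the others that fell in RαTd/Td mice, and neither stayed called without mouse 4, after median centring (-0.36 and -0.15) or after quantile normalization (-0.33 and -0.11).

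Further lists hold what a T cell meets beside costimulation. Of 6 tested adhesion and SLAM family genes, 2 fell and 2 rose in Rα+/+ mice, and 1 fell and 1 rose in RαTd/Td mice, beside 32.4% and 36.6% of all tested genes called lower. After median centring 0 of the 6 were lower in either genotype. Alcam, which encodes the ligand of CD6 on T cells, rose from 232 and 193 to 523 to 582 normalized counts in Rα+/+ mice (log2 fold change 1.38, limma adjusted p = 0.00014) and from 273 and 205 to 436 to 562 in RαTd/Td mice (1.12, adjusted p = 0.00032). Cd47, the signal that restrains uptake by phagocytes, fell in both (-0.38, adjusted p = 0.037, and -0.48, adjusted p = 0.0099), and was called in neither after median centring or quantile normalization, nor in Rα+/+ mice in 4 of the 11 fits without a mouse, nor in RαTd/Td mice without mouse 4. Of 8 MHC class II genes, which present the antigen that costimulation accompanies, 2 fell in Rα+/+ and 7 fell in RαTd/Td mice after IL-4c, beside the same shares of 32.4% and 36.6%. The difference in response between the genotypes was called for 0 of the 8. The 2 in Rα+/+ mice were H2-DMb2 and H2-Ob, both at the limit in all 3 IL-4c-treated mice of that genotype. After median centring 2 were lower and 1 higher in Rα+/+ mice, and 5 were lower in RαTd/Td mice. With a single limit for all mice 1 and 6 were lower. After PBS 5 of 8 were higher in RαTd/Td mice, with a median log2 difference of 1.43, beside 36 of 445 tested genes. After IL-4c 2 of 8 were higher, beside 7 of 445. H2-Aa, a class II chain, was 6135 and 8321 normalized counts in the PBS-treated RαTd/Td mice against 1724 and 1933 in the Rα+/+ mice (1.97, adjusted p = 0.014, lost without mouse 2 or mouse 4). After median centring the genotype counts were 4 of 8 after PBS and 0 of 8 after IL-4c, again without the share of all tested genes. The 3 costimulatory members had no called genotype difference in the same samples.

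**Figure D5:**
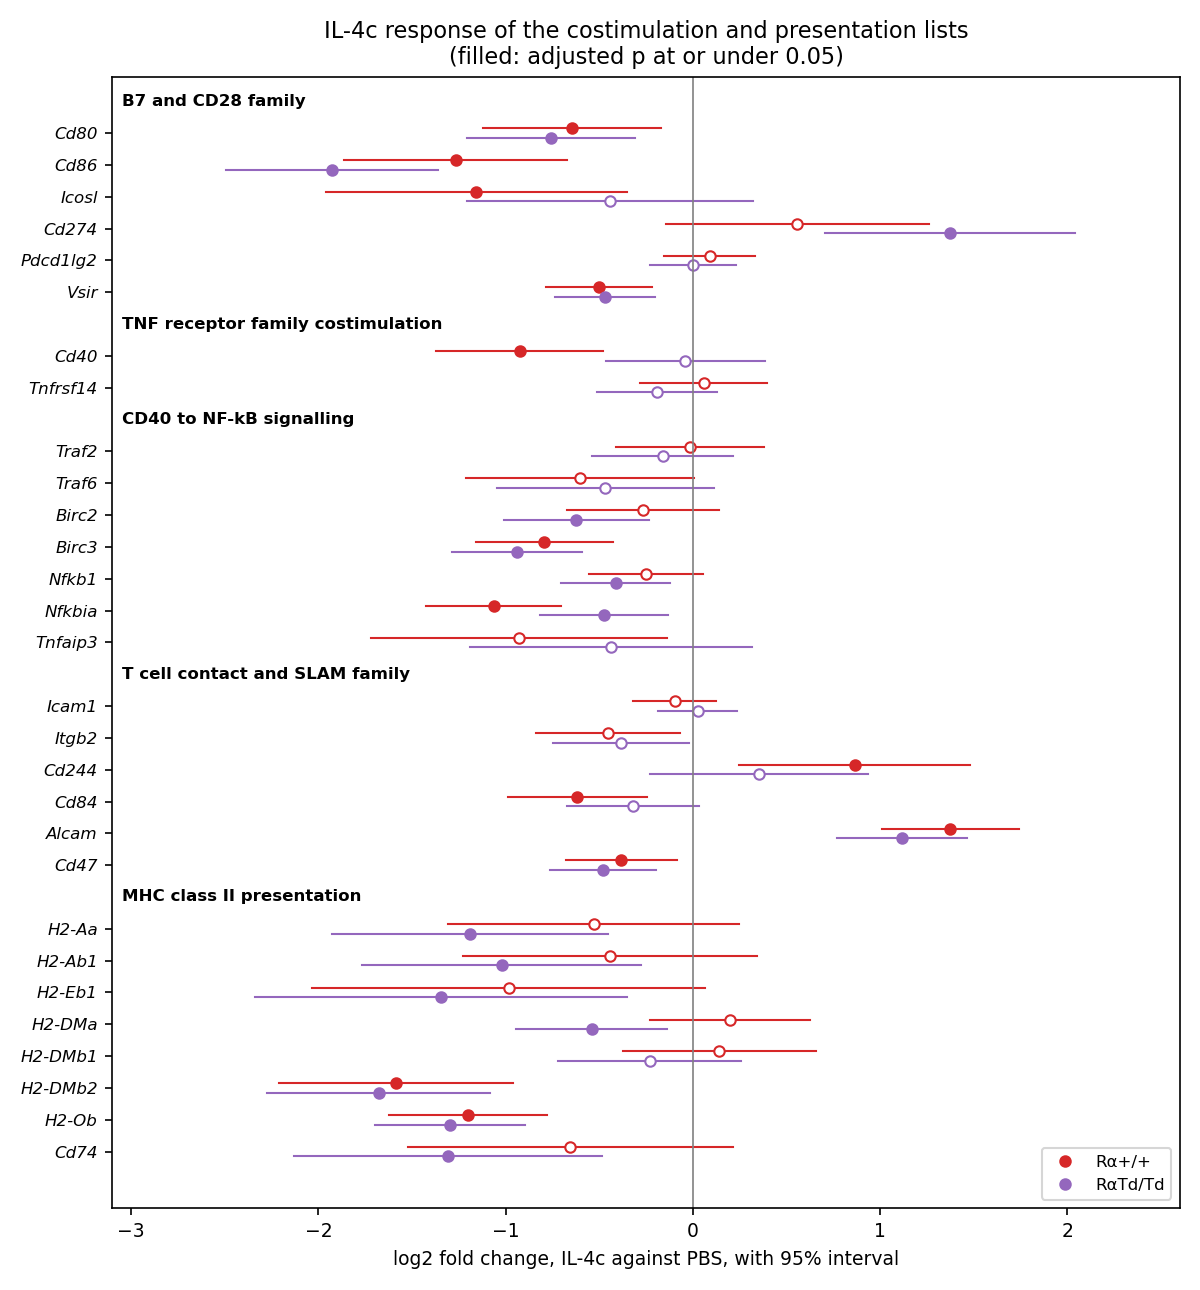
Log2 fold changes after IL-4c, with 95% intervals, of every tested gene of the 5 lists, in Rα+/+ (red) and RαTd/Td mice (purple); filled points had an adjusted p at or under 0.05. Cd274 (1.37 in RαTd/Td mice), Alcam (1.38 in Rα+/+ and 1.12 in RαTd/Td mice) and Cd244 (0.86 in Rα+/+ mice) are the filled points above 0, opposite to Cd80, Cd86 and Cd40.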

How the data were processed

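The values deposited by the authors are linear signal, in normalized counts: sorted cells were lysed, the Myeloid Innate Immunity v2 panel of Nanostring counted the transcripts, and the company's Advanced Analysis software scaled them to 4 housekeeping genes; its version is not given in the sources used here. In every column low values had been replaced by 30, and 14 control probes were left as raw counts. Dividing a column by its factor (0.75 to 1.88) gave whole counts within 0.1, which set the depth and the exact 95% Poisson intervals. The smallest measurable value ran from 30.5 to 56.3 between mice, and values at the limit have no order.

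Values were taken as log2(value + 1), and fold changes are on that scale. The 445 genes with a mean above 30 were fitted together in limma 3.58.1 (R 4.3.3, 1 coefficient per group, empirical Bayes), with Benjamini-Hochberg adjustment within each of 7 comparisons and a call at an adjusted p of 0.05 or less. Ratios within mice were compared by an exact permutation test stratified by the other factor (scipy 1.17.1 and numpy 2.4.6). Both tests were tested on simulated data with 200 changed genes or a known shift. Named beside the members were Retnla and genes of 5 pathway lists called in a comparison within 1 genotype or treatment, up to 6 a list, with Tnfrsf14 named although not called; cell type markers came from fixed lists. Members, lists and tests were chosen with earlier results of these data known. Alternatives were no filter, a mean above 100, a value above 30 in every mouse, a pseudocount of 10, median centring, quantile normalization, a single limit of 56.3, limma with trend and robust moderation, only the 2 groups compared, the unmoderated test of the study's methods, and each mouse left out. Sequence and positions are from RefSeq tables (GRCm38.p6).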

Additional observations from a re-analysis of the deposited data

How the results depend on the processing

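The PBS-treated groups held 2 mice each. The median tested gene lay at -0.18 and -0.23 for IL-4c in Rα+/+ and RαTd/Td mice with the authors' normalization, and at 0.12 and 0.03 after median centring. Called under every alternative were the falls of Cd86 in RαTd/Td mice (22), of Cd40 in Rα+/+ mice (21) and the averaged falls of Cd86 and Cd80 (19 each). No called value changed its sign. The test on counts was not run, because the columns mix counts with limits. No paired analysis was possible because the groups share no mouse numbers.

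The Cd80 fall in Rα+/+ mice (-0.65) was not called without a filter (limma adjusted p = 0.077), with only the 2 groups in limma (0.095), or by the test of the study's methods (0.089 without and 0.16 with Benjamini-Hochberg), and it was -0.35 after centring and -0.40 after quantile normalization. The Cd80 fall in RαTd/Td mice was -0.50 and -0.46 under these 2 scalings, and the averaged Cd40 fall was -0.20 and -0.12. The Cd86 fall in Rα+/+ mice (-1.27) was not called by that test with Benjamini-Hochberg (0.086). Among differences that were not called, centring and quantile normalization turned Cd80 between genotypes after IL-4c to -0.14 and -0.049 and on average to -0.063 and -0.019, Cd40 for IL-4c in RαTd/Td mice to 0.22 and 0.33, and centring turned Cd86 between genotypes after IL-4c to -0.023.

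With each mouse left out, the IL-4c changes in Rα+/+ mice ran from -0.95 to -0.34 for Cd80 (lost without mouse 1, 6 or 7) and from -1.65 to -0.88 for Cd86 (lost without mouse 1). In RαTd/Td mice they ran from -0.87 to -0.67 for Cd80 (lost without mouse 3 or 4) and from -0.28 to 0.20 for Cd40 (never called; above 0 without mouse 4 or 9). The averaged Cd40 fall ran from -0.60 to -0.37 (lost without mouse 1 or 4). The genotype difference after PBS ran from 0.44 to 1.21 for Cd86 (called without mouse 1) and from -0.15 to 0.47 for Cd80 (below 0 without mouse 2), and after IL-4c from -0.061 to 0.14 for Cd80 (below 0 without mouse 7 or 11). Averaged over treatments it ran from 0.30 to 0.69 for Cd86 (called without mouse 1) and from -0.051 to 0.26 for Cd80 (below 0 without mouse 2). The difference in response of Cd80 ran from -0.42 to 0.20 (above 0 without mouse 2). The IL-4c difference of the Cd86 to Cd80 ratio ran from -1.03 to -0.80 and of the Cd86 to Cd40 ratio from -1.32 to -0.91, each with adjusted p-values from 0.033 to 0.12. Leaving out a PBS-treated mouse leaves 50 or 60 arrangements and a smallest unadjusted p of 0.02 or 0.017. The genotype difference of the Cd86 to Cd80 ratio ran from 0.29 to 0.52 (called without mouse 7, adjusted p = 0.044).

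The number of genes called moved by over 1.5 times in the genotype comparisons: from 43 to between 2 and 73 after PBS, from 12 to between 2 and 73 after IL-4c, from 9 to between 2 and 34 for the difference in response and from 58 to between 8 and 96 on average.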
